A study of Drosophila melanogaster
Mus musculus with 6 samples.

Results

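The regions described are 10 kb bins of the mouse genome that carried much dimethylation of histone H3 at lysine 36 (H3K36me2) and little trimethylation at lysine 27 (H3K27me3) in control cells, and that carried little H3K36me2 and much H3K27me3 in cells expressing a mutant histone. They are called filled bins. A bin was chosen when its deposited value reached 300 for H3K36me2 in WT cells, stayed under 15 for H3K36me2 in K36M cells, stayed under 10 for H3K27me3 in WT cells and reached 50 for H3K27me3 in K36M cells. The rule found 7566 bins among 232039 bins of that width on chromosomes 1 to 19, which is 3.26%. All 4 measured values served to choose them, so their levels and fold changes are given as a description and carry no test.

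The cells were C3H10T1/2, a line of mesenchymal progenitors from C3H mouse embryos, which can be driven towards bone, cartilage or fat cells. The tested line stably expressed FLAG-HA-tagged histone H3.1 with methionine in place of lysine 36 (K36M), and the control line stably expressed tagged wild-type H3.1 (WT); both were used at passage 10 to 15 and both carry the tagged transgene on top of their own histone genes. Chromatin cut to mononucleosomes was precipitated with antibodies to H3K36me2 or H3K27me3, and chromatin of Drosophila S2 cells was added to each as a reference for overall levels (ChIP-Rx). Each line and mark gave 1 library, so nothing was replicated and no test between the lines was possible.

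H3K36me2 is laid down by enzymes of the NSD family and ASH1L over broad stretches of open chromatin, between genes as well as within them. H3K27me3 is made by Polycomb repressive complex 2 (PRC2), whose catalytic subunit EZH2 or EZH1 works with EED and SUZ12, and it marks silenced developmental genes. Methylation of lysine 36 hinders PRC2 on the same histone tail, and K36M histone acts as a dominant inhibitor of lysine 36 methyltransferases.

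Every value in the table is a read number times a fixed factor of its library, here a scaled read. Totals recovered from the table were 51982053 reads for H3K36me2 in K36M and 59618463 in WT, and 29817968 reads for H3K27me3 in K36M and 31847430 in WT. A median filled bin held 109 reads for H3K36me2 in K36M and 693 in WT, and 209 reads for H3K27me3 in K36M and 57 in WT. Counting alone then gave 95% half-widths of 18.8%, 7.45%, 13.6% and 26.0% of the value in the same order. The 95% intervals of ratios given below reflect the number of reads and nothing else, and without molecular identifiers some reads can be copies of 1 molecule. The 95% intervals of shares reflect the number of bins, counted as if independent. Neighbouring bins are not independent, so these intervals are too narrow.

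The rule holds every filled bin under 15 scaled reads of H3K36me2 and at 50 or more of H3K27me3 in K36M cells, so the levels below describe what was chosen. Mean H3K36me2 was 8.94 scaled reads per bin in K36M and 447 in WT (SD over bins 2.38 and 84.4), which is 49.9-fold lower in K36M (49.8 to 50.0). Mean H3K27me3 was 64.9 in K36M and 6.30 in WT (SD over bins 12.6 and 1.91), 10.3-fold higher in K36M (10.27 to 10.34). The rule itself forces at least 20-fold and 5-fold in every bin. Across autosomal bins with reads in both lines, 31.4% had H3K36me2 at least 20-fold lower in K36M and 39.7% had H3K27me3 at least 5-fold higher. The stricter sizes of 40-fold for H3K36me2 and 10-fold for H3K27me3 were met by 5967 and 4098 of the 7566 filled bins (78.9% and 54.2%), beside 13.4% and 9.44% of autosomal bins, a contrast that the choice of bins fixes in large part.

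**Figure D1:**
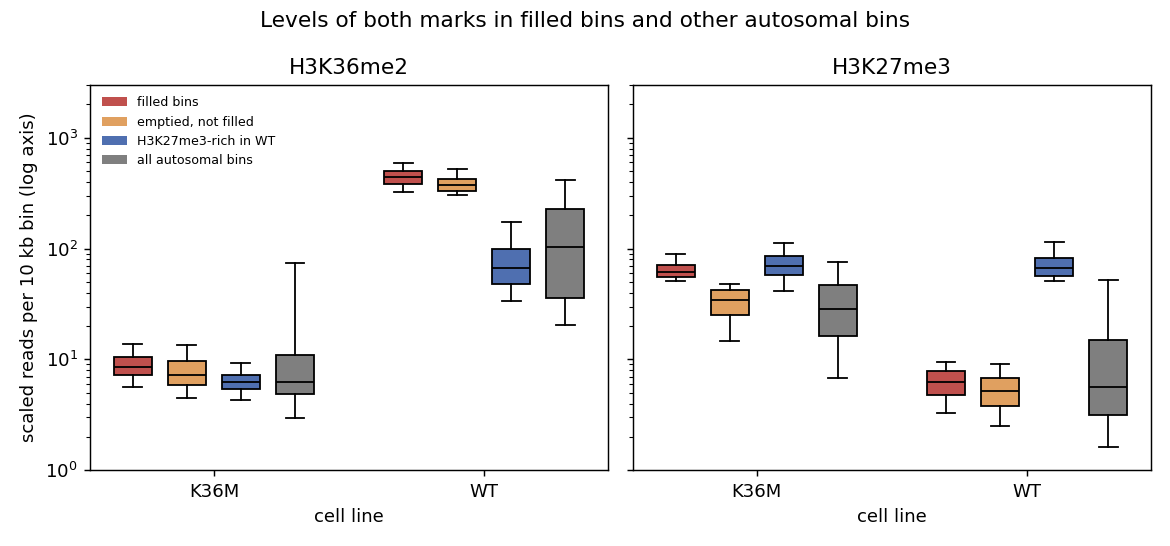
Scaled reads per 10 kb bin (log axis) of H3K36me2 and H3K27me3 in K36M and WT cells, for filled bins, emptied bins that did not fill, bins rich in H3K27me3 in WT and all autosomal bins. Boxes are quartiles with the median and whiskers the 5th and 95th percentiles over bins; in K36M the filled bins have a median H3K27me3 of 61.7, against 6.21 in WT.

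The H3K27me3 level of filled bins in K36M is set here beside that of bins rich in H3K27me3 in WT, called Polycomb-rich. The filled bins had a median of 61.7 in K36M (interquartile range 55.2 to 71.4), above 88.2% of autosomal bins, and 6.21 in WT (4.80 to 7.85). Their highest bin reached 144 in K36M. The 12485 autosomal bins with at least 50 scaled reads of H3K27me3 in WT had a median of 70.2 in K36M (57.8 to 85.0) and 66.4 in WT. Residual H3K36me2 in K36M had a median of 8.50 in filled bins (7.18 to 10.5), above 69.1% of autosomal bins, and of 6.24 in the bins that were Polycomb-rich in WT (5.46 to 7.18). The WT medians were 441 in filled bins and 66.8 in the Polycomb-rich bins. In K36M the lower limit of 50 was imposed on the filled bins and not on the Polycomb-rich bins, which had to reach it in WT. How near these K36M medians lie is thus set in part by the rule.

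The filled bins account for only part of the H3K27me3-rich chromatin of K36M cells. Of 49763 autosomal bins that reached 50 scaled reads of H3K27me3 in K36M, the filled bins made up 15.2%. A further 10846 bins (21.8%) were already there in WT, and 24370 (49.0%) lay between 10 and 50 in WT. The remaining 6981 bins (14.0%) also had less than 10 in WT but missed the H3K36me2 part of the rule: 5664 of them had under 300 scaled reads of H3K36me2 in WT, and 1317 kept 15 or more in K36M. The filled bins held 6.22% of autosomal H3K27me3 reads in K36M and 1.55% in WT, and 1.81% of H3K36me2 reads in K36M and 9.50% in WT. A library's factor cancels in such a share.

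The thresholds cut through a continuum. Just inside the limits were bins with 300.2 scaled reads of H3K36me2 in WT (472 reads), 14.98 of H3K36me2 in K36M (192 reads), 9.919 of H3K27me3 in WT (91 reads) and 50.15 of H3K27me3 in K36M (170 reads). Just outside lay bins with 299.6, 15.05, 10.03 and 49.86, each 1 read away. On chromosome 3 the bin at 29710001 to 29720000 (mm9) qualified with 4.446 scaled reads of H3K36me2 in K36M and 300.2 in WT, and 57.82 of H3K27me3 in K36M and 3.27 in WT. On the same chromosome 57120001 to 57130000 did not, with 6.942 of H3K36me2 in K36M and 299.6 in WT, and 54.87 of H3K27me3 in K36M and 3.815 in WT. Of the filled bins 3181 (42.0%) were clear of all 4 limits by more than their 95% counting error; 2907 (38.4%) lay within that error of the H3K27me3 limit in K36M. With all limits relaxed by 10% there were 11442 filled bins, and with all tightened by 10% there were 4565.

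Filled bins came in clusters, and the longest uninterrupted ones ran over 100 kb. The 7566 bins formed 4159 runs of directly adjacent bins. Single bins numbered 2600 (34.4% of filled bins), and 245 runs had 5 or more bins and held 1681 of them (22.2%). Runs of 10 or more numbered 31 and held 386 bins, and runs of 5 or more occurred on 18 of the 19 autosomes. The 8067 10 kb bins next to run ends had a median H3K27me3 of 45.4 in K36M and 5.12 in WT, and a median H3K36me2 of 8.58 in K36M and 366 in WT. Of them 33.2% failed the H3K27me3 limit in K36M alone, 16.4% the H3K27me3 limit in WT alone, 7.78% the H3K36me2 limit in K36M alone, 2.12% the H3K36me2 limit in WT alone, and 40.4% more than 1. Joining runs over 1 bin brought the share of filled bins in runs of 5 or more to 41.0%.

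The longest run lay near the start of chromosome 15, at 3540001 to 3760000 (mm9), and spanned 22 bins. Mean H3K36me2 there was 9.18 scaled reads per bin in K36M and 500.3 in WT, 54.5-fold lower in K36M (52.3 to 56.8). Mean H3K27me3 was 83.6 in K36M and 6.23 in WT, 13.4-fold higher in K36M (12.6 to 14.3), with single bins between 52.5 and 120 in K36M. Its surroundings were sorted by their H3K36me2 in K36M and their H3K27me3 in WT. The 37 filled bins within 1000 kb of its centre had median H3K36me2 of 9.13 in K36M and 487 in WT, and median H3K27me3 of 77.0 in K36M and 6.65 in WT. In the same window 51 other bins retained at least 15 scaled reads of H3K36me2 in K36M and had under 10 of H3K27me3 in WT. Their median H3K36me2 was 73.8 in K36M and 235 in WT, and their median H3K27me3 was 19.5 in K36M and 2.83 in WT. These 51 bins thus differed from the filled bins in WT as well, in both marks, and the part of this in their K36M H3K27me3 was not tested. A further 63 bins with at least 10 scaled reads of H3K27me3 in WT had a median H3K27me3 of 46.9 in K36M and 21.6 in WT.

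**Figure D2:**
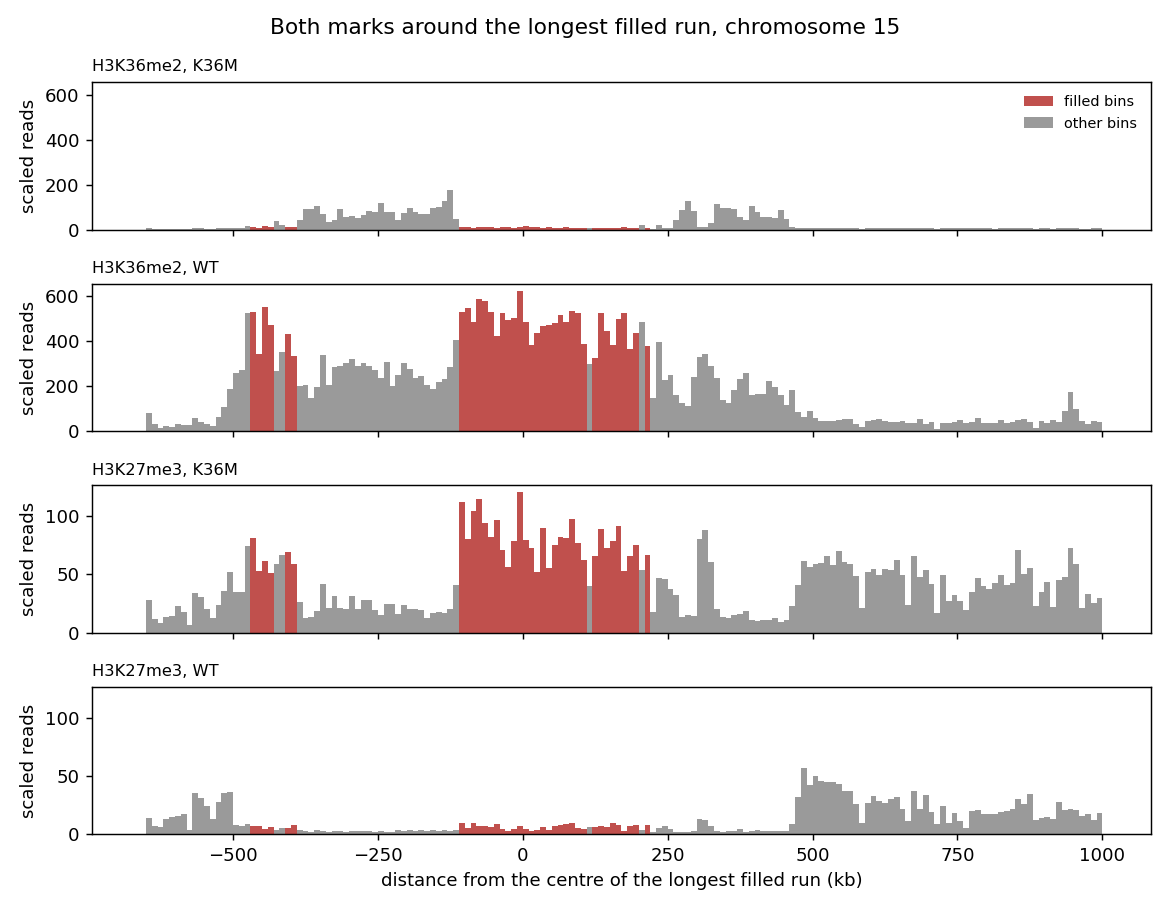
Scaled reads per 10 kb bin of H3K36me2 and H3K27me3 in K36M and WT cells against distance (kb) from the centre of the longest filled run, with filled bins in red and other bins in grey; both panels of a mark share 1 scale, and bins begin about 650 kb left of the centre. In K36M the 37 filled bins have median H3K27me3 of 77.0, and the bins that kept H3K36me2 have 19.5.

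The next runs in length had the same build. On chromosome 2, 117740001 to 117930000 (19 bins) had mean H3K36me2 of 8.49 in K36M and 475 in WT, and mean H3K27me3 of 69.3 in K36M and 5.48 in WT. Chromosome 12 at 15970001 to 16150000 (18 bins) had 7.97 and 520.4 for H3K36me2 in K36M and WT, and 71.9 and 6.16 for H3K27me3 in K36M and WT. Chromosome 9 at 23560001 to 23730000 (17 bins) started from less H3K36me2, 8.26 in K36M against 410 in WT, yet had 82.5 scaled reads of H3K27me3 in K36M against 5.18 in WT. In chromosome 16 at 14880001 to 15050000 (17 bins) these means were 9.36 in K36M and 516 in WT for H3K36me2, and 75.1 in K36M and 6.25 in WT for H3K27me3. The 10 longest runs, 130 to 220 kb long, also included 81760001 to 81900000 and 78060001 to 78190000 on chromosome 1, 79330001 to 79470000 on chromosome 2, 85900001 to 86030000 on chromosome 16 and 57760001 to 57890000 on chromosome 18. Over the 10, H3K36me2 was 49.6-fold to 76.8-fold lower in K36M and H3K27me3 was 11.1-fold to 18.4-fold higher. The first of the runs on chromosome 1 had both extremes, with 8.15 in K36M and 626 in WT for H3K36me2, and 80.3 in K36M and 4.36 in WT for H3K27me3.

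Each autosome had at least 1 run of 4 or more bins. The longest run per autosome measured 40 kb (chromosome 11, 30170001 to 30210000) to 220 kb, with a median of 100 kb. H3K27me3 in these 19 runs was between 54.996 and 83.6 in K36M and between 4.36 and 7.77 in WT. H3K36me2 was between 6.65 and 11.8 in K36M and between 363 and 626 in WT. The deepest fall of H3K36me2 among them, 83.3-fold (77.6 to 89.5), was on chromosome 4 at 56320001 to 56420000, with 6.65 in K36M and 554 in WT; 1 bin of this run held the highest H3K27me3 of all filled bins. The smallest H3K27me3 ratio, 7.84-fold (7.08 to 8.70), was on chromosome 14 at 25630001 to 25700000, with 60.9 in K36M and 7.77 in WT. The remaining autosomes were represented by 21730001 to 21830000 on chromosome 3, 5420001 to 5490000 on 5, 7890001 to 7970000 on 6, 79880001 to 79940000 on 7, 32730001 to 32830000 on 8, 18770001 to 18880000 on 10, 111210001 to 111330000 on 13, 81180001 to 81250000 on 17 and 16500001 to 16580000 on 19. Among runs of at least 3 bins, H3K27me3 in K36M was highest on chromosome 8 at 105310001 to 105340000, at 111 in K36M against 8.43 in WT. Chromosome 16 at 15120001 to 15170000 followed with 107 in K36M against 5.19 in WT, 20.6-fold (18.0 to 23.7), and then chromosome 15 at 11400001 to 11440000 (105 in K36M, 6.62 in WT), chromosome 15 at 52840001 to 52870000 (102 in K36M, 7.19 in WT) and chromosome 13 at 111430001 to 111510000 (99.6 in K36M, 4.97 in WT). Gene content is not given, since no mouse annotation was used here.

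The next comparison sets the filled bins beside those that lost H3K36me2 in the same way and did not fill. Under the first 3 limits 20867 autosomal bins qualify, called emptied bins: rich in H3K36me2 in WT, stripped of it in K36M, and poor in H3K27me3 in WT. The filled bins are 36.3% of them (35.6 to 36.9, exact binomial interval over bins, which are not independent). The other 13301 had a median H3K27me3 of 34.5 in K36M (interquartile range 25.1 to 42.2) and 5.23 in WT, so they too had more in K36M, 6.12-fold by the ratio of means (6.10 to 6.13). Their H3K36me2 was 48.6-fold lower in K36M, against 49.9-fold in filled bins. Filled bins were somewhat higher than the emptied bins that did not fill in all 4 libraries: the ratio of medians was 1.17 for H3K36me2 in K36M, 1.18 for H3K36me2 in WT and 1.19 for H3K27me3 in WT, against 1.79 for H3K27me3 in K36M. The part of this shared difference in the filling was not tested, and the 2 input libraries were not used here.

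The share of emptied bins that filled was related to how much H3K36me2 they had in WT. In the highest decile of WT H3K36me2 (median 558) it was 68.6%, with a median H3K27me3 of 61.1 in K36M. In the lowest decile (median 308) it was 14.8%, with a median of 33.3 in K36M, and the shares between went up with every decile. The ordering was present at each WT level of H3K27me3: from its lowest to its highest quintile, emptied bins in the top quintile of WT H3K36me2 filled in 51.4%, 58.5%, 64.8%, 69.5% and 75.4%, against 5.63%, 8.86%, 13.4%, 21.9% and 29.6% in the bottom quintile. It was present at each level of residual H3K36me2 in K36M too, at 24.1%, 45.1%, 66.4%, 79.1% and 77.0% in the top quintile of WT H3K36me2, against 10.7%, 20.6%, 20.9%, 19.6% and 12.7% in the bottom one. Across emptied bins Spearman's rho between WT H3K36me2 and K36M H3K27me3 was 0.41, and between 0.10 (chromosome 11) and 0.58 (chromosome 12) within the 19 autosomes. Within the filled bins alone rho was 0.36 (0.09 to 0.47 over autosomes). The libraries share the sequence and mappable length of each bin, so these correlations describe the bins and carry no p.

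WT H3K27me3 below the limit of 10 was also ordered with filling. In the highest decile of it among emptied bins (median 9.27) 48.5% filled, against 15.7% in the lowest (median 2.73). Spearman's rho with K36M H3K27me3, from the same antibody, was 0.24 over emptied bins and positive on 19 of 19 autosomes. Residual H3K36me2 in K36M had a rho of 0.29 with K36M H3K27me3 over emptied bins, positive on 14 of 19 autosomes (-0.10 to 0.46), but the relation was not monotone. The share that filled was 9.01% in its lowest decile (median 4.76), 50.2% in the sixth (median 8.19) and 39.1% in the highest (median 13.7).

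Above the limit of 15, more residual H3K36me2 went with less H3K27me3. Among autosomal bins with at least 300 scaled reads of H3K36me2 and under 10 of H3K27me3 in WT, 42.2% of the 5233 with 10 to 15 scaled reads of H3K36me2 in K36M reached 50 for H3K27me3 in K36M (40.9 to 43.6). With 15 to 30 it was 25.1% of 4426 (23.8 to 26.4), with 30 to 60 it was 10.3% of 1723 (8.88 to 11.8), and with 60 or more it was 5.16% of 562 (3.48 to 7.33). Median H3K27me3 in K36M over these 4 classes was 46.3, 38.1, 28.9 and 20.4. Median H3K36me2 in WT changed less, from 401 to 352, while median H3K27me3 in WT went down too, at 4.80, 3.60, 3.05 and 3.05. Below a residue of 10 the order turned. Values there lie around the K36M median of all autosomal bins, 6.24, and how much of them is background was not tested. With 5 to 10, 37.1% of 14122 bins reached the limit (36.3 to 37.9), with a median H3K27me3 of 43.7 in K36M and 5.995 in WT. Under 5 it was 7.61% of 1512 bins (6.32 to 9.06), with a median H3K27me3 of 24.2 in K36M and 5.45 in WT. The bins of least residue were thus low in both K36M libraries; the part of this in their filling was not tested.

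An emptied bin was filled more often where its neighbour was filled. When an emptied bin was filled, the emptied bin 10 kb further along was filled in 72.0% of 4733 pairs. When it was not filled, the next was filled in 17.4% of 7792 pairs. At 100 kb these shares were 62.0% and 20.2%, at 200 kb 55.6% and 21.8%, and at 500 kb 45.2% and 27.7%. At 1000 kb they were 38.3% and 32.8%, at 2000 kb 42.2% and 37.4%, at 5000 kb 43.0% and 41.0%, and at 10000 kb 39.6% and 32.7%. From 1000 kb on the gap was thus smaller than at 500 kb but did not close, and it was wider at 10000 kb than at 5000 kb. Pairs overlap and are not independent, so the shares carry no interval.

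**Figure D3:**
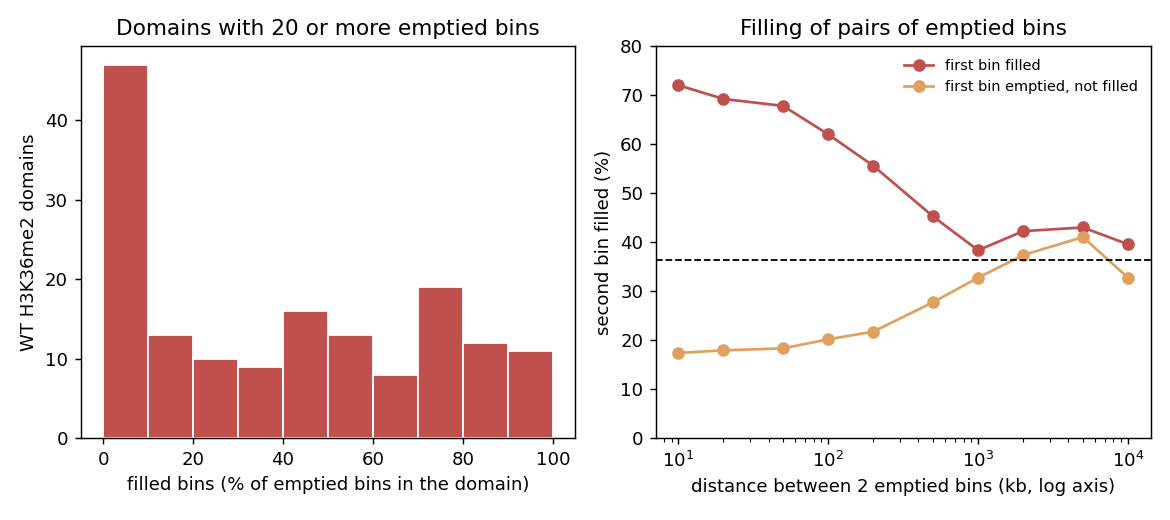
Left, number of WT H3K36me2 domains against the percent of their emptied bins that filled, for the 158 domains with 20 or more emptied bins. Right, percent of second bins filled against the distance (kb, log axis) between 2 emptied bins, by whether the first was filled; the dashed line is the overall 36.3%, and the curves stand at 72.0% and 17.4% at 10 kb.

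Whole domains differed in how far they filled. Domains were taken as unbroken runs of 10 kb bins with at least 200 scaled reads of H3K36me2 in WT; 2039 of 14339 held a filled bin. In the 158 domains with 20 or more emptied bins, the share filled had a median of 40.1% and an interquartile range of 6.87% to 71.1%. Domains filled to 80% or more numbered 23, and 47 were filled to 10% or less, of which 23 had no filled bin. The mean of a domain covers all its bins, also those that were not emptied. Mean H3K27me3 in the 23 well-filled domains had a median of 64.1 in K36M and 5.66 in WT, and in the 47 hardly filled ones 26.5 in K36M and 5.87 in WT. The domains were sorted by filling, which is itself read from H3K27me3 in K36M, so the K36M gap is set in large part by the sorting. Mean H3K36me2 had medians of 11.1 in K36M and 451 in WT in the well-filled domains, and of 6.35 in K36M and 402 in WT in the hardly filled ones. These means of H3K36me2 in K36M ranged from 6.78 to 21.0 in the well-filled and from 3.77 to 11.6 in the hardly filled domains. The domain with 21.0, on chromosome 3 at 21730001 to 22090000, had 36 bins, of which 20 were emptied and so under 15. WT H3K36me2 had interquartile ranges of 427 to 475 and 360 to 418, and WT H3K27me3 of 5.36 to 7.07 and 4.83 to 7.41, in the well-filled and the hardly filled domains. Mean H3K36me2 was thus lower at the median in both lines in the hardly filled domains. These means do not separate emptied bins from bins that kept H3K36me2, and the part of this difference in the filling was not tested. Lengths were similar, with medians of 360 kb in the well-filled and 410 kb in the hardly filled domains. The median distance to WT bins rich in H3K27me3 was 475 kb in the well-filled and 955 kb in the hardly filled domains, with wide overlap (160 to 2135 kb and 100 to 5945 kb).

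The domains at either end of this scale with the most emptied bins, 4 at each end, were chosen after their values were seen. Averages here are again over all bins of a domain. The 4 from the well-filled end had H3K36me2 of 6.78 to 12.5 in K36M and 477 to 559 in WT. The 4 from the hardly filled end had 4.82 to 6.66 in K36M and 360 to 513 in WT. WT H3K27me3 was 4.01 to 7.19 in the 4 well-filled and 3.89 to 7.13 in the 4 hardly filled domains. The domain on chromosome 1 at 81570001 to 82180000 filled in 50 of 53 emptied bins: H3K36me2 averaged 10.9 in K36M and 559 in WT, and H3K27me3 68.9 in K36M and 4.01 in WT, 17.2-fold (16.4 to 18.0). The domain on chromosome 10 at 37430001 to 38480000 filled in 1 of 95 emptied bins. There H3K36me2 averaged 6.66 in K36M and 513 in WT, and H3K27me3 26.5 in K36M and 4.56 in WT, 5.81-fold (5.61 to 6.03). Chromosome 4 held both kinds. Its domain at 55880001 to 56420000 filled in 41 of 48 emptied bins, with H3K36me2 of 6.78 in K36M and 514 in WT and H3K27me3 of 61.3 in K36M and 7.19 in WT. Its domain at 6370001 to 7200000 filled in 5 of 67, with H3K36me2 of 6.43 in K36M and 425 in WT and H3K27me3 of 23.3 in K36M and 7.13 in WT. Between these domains of chromosome 4 residual H3K36me2 and WT H3K27me3 were nearly equal, and WT H3K36me2 was higher in the filled one; the difference in K36M H3K27me3 is how they were picked.

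The area around a filled run was also high in H3K27me3 in K36M. At 100 kb beyond the ends of the 245 runs of 5 or more filled bins, median H3K27me3 was 50.7 in K36M and 5.12 in WT, and 31.7% of bins were filled. At 300 kb it was 41.0 in K36M and 6.43 in WT, and 17.1% were filled. Around the 460 runs of 5 or more emptied bins that did not fill, the medians were 27.1 in K36M and 5.67 in WT at 100 kb, and 26.8 in K36M and 6.21 in WT at 300 kb, with 7.33% and 8.72% of bins filled. H3K36me2 around the filled runs was 9.13 in K36M and 398 in WT at 100 kb, against 6.24 in K36M and 352 in WT around the others. At 300 kb the WT medians were alike, 290 and 299.6, and the K36M medians were 7.64 and 6.28.

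**Figure D4:**
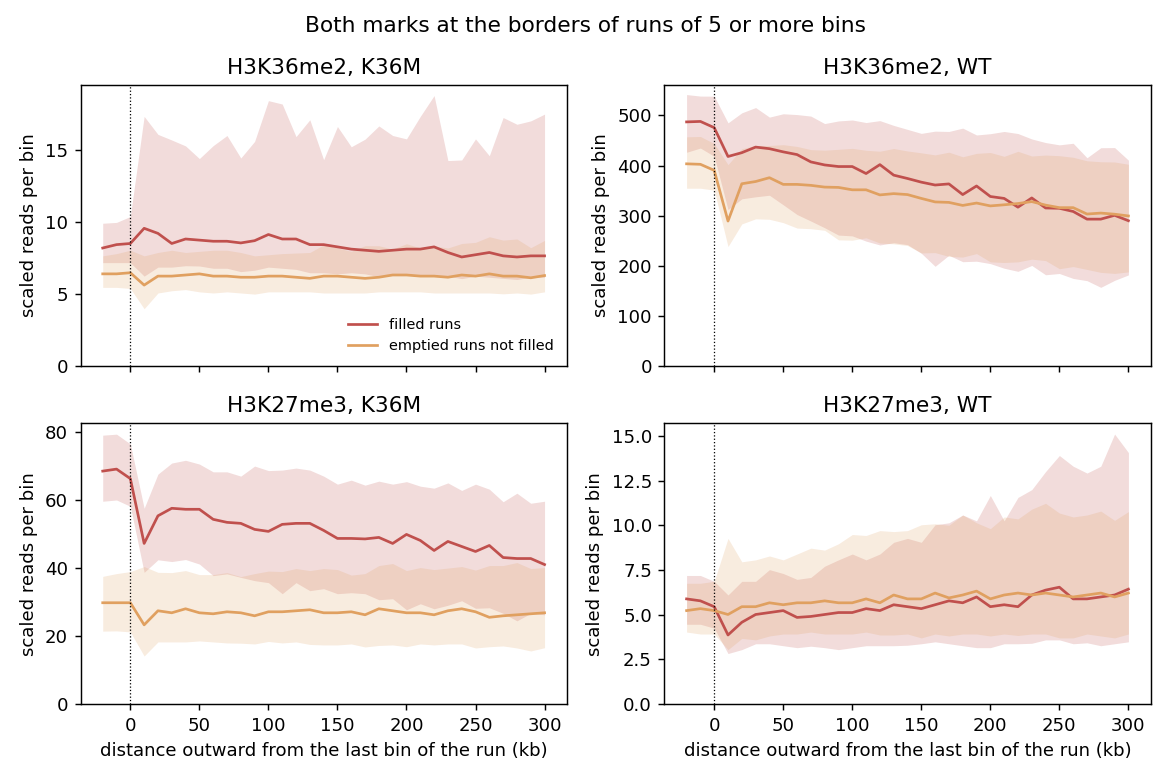
Median scaled reads per 10 kb bin (lines) with quartiles (bands) against distance (kb) outward from the last bin of runs of 5 or more filled bins (245 runs) or of 5 or more emptied bins that did not fill (460 runs), for each library. H3K27me3 in K36M is 50.7 around filled runs and 27.1 around the others at 100 kb; the step at the first outside bin is set by the rule.

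Position within the WT domain made a small difference. Filled bins lay a median of 50 kb from the edge of their domain (interquartile range 30 to 90), and emptied bins that did not fill 40 kb (20 to 80). The difference was above 0 on 11 autosomes and 0 on the other 8. The share filled was 30.5% in edge bins (28.8 to 32.2) and 40.3% at 110 to 200 kb from the edge (38.5 to 42.2), then 36.8% at 210 to 500 kb (33.6 to 40.1) and 11.9% beyond 500 kb (7 of 59 bins). Bins in that last class can come only from the domains on chromosome 11 at 111050001 to 112640000 and chromosome 10 at 37430001 to 38480000, so it describes single loci. By length, the share filled was 27.6% in domains of up to 50 kb and 41.2% in domains of 210 to 400 kb, but 8.38% of the 346 emptied bins in domains over 800 kb. These 346 bins came from single domains on chromosome 10 (1 of 95 filled), 11 (18 of 102), 18 (5 of 82) and 4 (5 of 67). The value for that class thus describes a few loci and no general relation to length. Median WT H3K36me2 moved with the distance from the edge as well, at 362 in edge bins, 427 at 110 to 200 kb and 464 at 210 to 500 kb.

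Distance to Polycomb chromatin of WT cells also went with filling, less evenly. Filled bins lay a median of 390 kb from the nearest bin with at least 50 scaled reads of H3K27me3 in WT (190 to 710), and emptied bins that did not fill 510 kb (230 to 1030). The difference of -120 kb was smaller than its spread over autosomes (SD 149 kb) and was negative on 14 of 19. With limits of 30 and 100 scaled reads for that bin the difference was -40 and -720 kb. The share filled was 36.9% within 50 kb (33.7 to 40.2), 42.8% at 110 to 200 kb (40.9 to 44.7), 38.5% at 410 to 800 kb (37.2 to 39.9) and 21.9% beyond 1600 kb (20.2 to 23.6). Residual H3K36me2 in K36M differed along the same axis, with medians of 9.20, 8.66, 7.57 and 6.24 in these classes.

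The autosomes differed in their share of filled bins. Filled bins made up 7.18% of all 10 kb bins on chromosome 13 (810 bins), 6.60% on chromosome 15 (649 bins) and 0.930% on chromosome 5 (133 bins). As a share of emptied bins, the highest was 47.8% on chromosome 15 (45.1 to 50.5), followed by 45.4% on chromosome 16, and the lowest were 20.5% on chromosome 5 (17.4 to 23.8) and 23.4% on chromosome 11 (20.4 to 26.5). Within the limits that the rule sets, median H3K27me3 in the filled bins lay between 57.5 (chromosome 11) and 65.2 (chromosome 9) in K36M and between 5.18 and 7.19 in WT. Median H3K36me2 in WT was between 376 (chromosome 3) and 483 (chromosome 16). Over all emptied bins, median WT H3K36me2 was highest on chromosome 15, at 442, and was 350.1 on chromosome 5. The share filled did not follow this median on every autosome. The lowest median, 349.8, was on chromosome 6, where 34.7% of emptied bins filled. Chromosome 19 had a median of 377 and 44.4% filled, while chromosome 4 had a higher median, 411, and a smaller share filled. A relation between share and median over the autosomes was not tested.

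**Figure D5:**
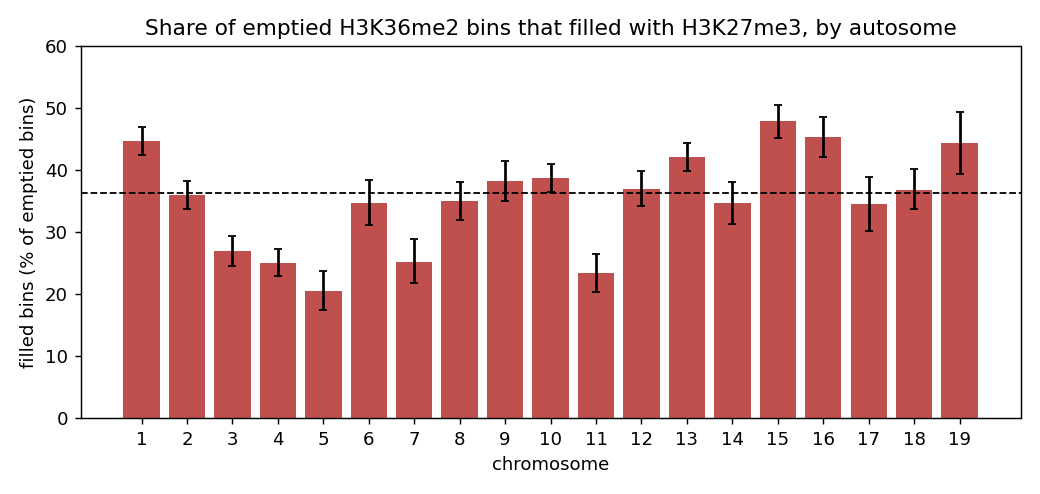
Filled bins as a percent of emptied bins on each autosome, with exact binomial 95% intervals over bins as error bars; the dashed line is the overall 36.3%. Chromosome 15 stands highest at 47.8% and chromosome 5 lowest at 20.5%.

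Filled bins were also concentrated within chromosomes. They were present in 407 windows of 5 Mb, and 70 windows, 13.9% of all such windows, held 50% of them. By the rule, filled bins can lie only among emptied bins, and the same share was not computed for emptied bins. Whether filled bins were more concentrated than emptied bins was thus not tested. The window with the most filled bins was on chromosome 4 at 55 to 60 Mb, where 115 of 157 emptied bins had filled (73.2%). Chromosome 15 at 50 to 55 Mb had 113 of 228 (49.6%) and at 40 to 45 Mb 105 of 166 (63.3%), chromosome 13 at 30 to 35 Mb 99 of 139 (71.2%), and chromosome 2 at 50 to 55 Mb 90 of 104 (86.5%). Among the 46 windows with 100 or more emptied bins the lowest share was on chromosome 4 as well, at 25 to 30 Mb, where 2 of 154 had filled (1.30%). Chromosome 3 at 145 to 150 Mb had 4 of 119 (3.36%). These windows were chosen by their counts and are a description.

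The size of the changes rested on the library factors. Scaling each library to its own total shifted every H3K36me2 ratio up 9.35-fold and every H3K27me3 ratio down 2.53-fold. That scale by construction puts the K36M over WT ratio of means of all autosomal bins near 1, at 0.985 for H3K36me2 and 1.01 for H3K27me3. It therefore cannot show a change in the total of a mark. The filled bins had 0.187 (0.1869 to 0.1877) and 4.07 (4.05 to 4.08), and the limits of the rule fix the direction of both. Over the 10 longest runs, the fall of H3K36me2 was 5.30-fold to 8.21-fold and H3K27me3 was 4.38-fold to 7.27-fold higher on that scale.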

How the data were processed

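Per the labels' protocols, chromatin was digested with micrococcal nuclease, soluble Drosophila S2 chromatin equal to 5% of the mouse chromatin was added, and sequencing libraries were made by a TruSeq protocol; a second passage of the labels speaks of a 1:1 mix of cells, which leaves the ratio unclear. The aligner Bowtie 1.0.0 and the genomes mm9 (mouse) and dm6 (fly) are named per the submitters' processing notes; the steps of filtering, binning and scaling are not given in the sources at hand. The authors deposited a signal value per interval for 4 libraries. Each column proved to be made of whole steps (to 0.01 of a read), 0.078 and 0.636 for H3K36me2 in K36M and WT and 0.295 and 0.109 for H3K27me3, so reads were recovered by division. The count test was not run on them, since each group held 1 library. The 3718 autosomal intervals of other widths were left out, and runs end at them. The titles of both inputs name H3.3 and their genotypes H3.1; the genotype was used, and the inputs had no columns in the table used. Coordinates are 1-based in mm9.

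The filled bins, the domain limit and the regions named (the 10 longest runs, the longest per autosome and the 5 runs of 3 or more bins with the highest K36M H3K27me3) were chosen with earlier results of these data known. Ratio intervals come from the binomial split of reads, and shares have exact binomial (Clopper-Pearson) intervals. The rule and the distances to domain edges were checked on simulated bins with known answers, and run lengths were counted there. Distances to the nearest bin of a set were checked only for bins inside the set. Alternatives covered limits, scaling, background subtraction (5th percentile of each library), averaging, adjacency, domain and Polycomb limits. Gene lists were not applied for want of a mouse annotation. Calculations used scipy 1.17.1, pandas 2.3.3 and numpy 2.4.6 under Python 3.11.15, and figures matplotlib 3.10.9.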

Additional observations from a re-analysis of the deposited data

Results flagged for a closer look

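Signal meeting the same 4 limits appeared in parts of the table outside the autosomal 10 kb bins. On X, 16 of 15554 bins of 10 kb passed, far fewer for its size than on the autosomes (7566 of 232039, 3.26%). At least 300 scaled reads of H3K36me2 in WT were found in 131 X bins, beside 34281 autosomal bins. Emptied bins on X numbered 29, so 55.2% of them passed (exact binomial interval 35.7 to 73.6), beside 36.3% on the autosomes. In the 16 bins that passed, median H3K27me3 was 57.4 in K36M and 7.47 in WT. Among autosomal intervals wider than 10 kb, with values divided by their width in units of 10 kb, 134 passed, out of 370 emptied ones (36.2%, interval 31.3 to 41.3). Their median H3K36me2 was 8.62 in K36M and 448 in WT, and their median H3K27me3 was 60.8 in K36M and 5.94 in WT.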

How the results depend on the processing

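No paired analysis was possible because each group held 1 library, and for the same reason no library could be left out. The direction of the ratios in filled bins is fixed by the rule under library totals. Relaxing the limits by 10% gave 11442 filled bins with 28.0% of them in runs of 5 or more, and tightening gave 4565; all chromosomes, 3-bin means and wide intervals gave 7587, 6581 and 7700. In filled bins the K36M to WT ratio of H3K36me2 was 0.0200, and 0.187 with library totals, 0.0140 after background subtraction and 0.0193 from medians; the H3K27me3 ratio was 10.3, and 4.07, 12.5 and 9.92. Joining runs over 1 bin gave 41.0% of filled bins in runs of 5 or more. The share of emptied bins filled was 30.1% and 51.2% with WT H3K36me2 limits of 250 and 400, 46.1% and 27.3% with K36M H3K27me3 limits of 45 and 55, and 37.2% without chromosome 4. The difference in distance to Polycomb-rich bins was -40 and -720 kb with limits of 30 and 100. With K36M H3K27me3 limits of 45 and 55, neighbours 10 kb from a filled bin filled in 78.3% and 66.0%, and the top decile of WT H3K36me2 in 75.6% and 61.4%. Domain limits of 150 and 300 gave 199 and 76 domains with median shares filled of 36.4% and 48.6%. The omission of chromosome 4, the limits tried for neighbours, the top decile and domains, and library totals for single runs were added after seeing the data. A single bin rests on 57 to 693 reads at the median, so membership near a limit is uncertain.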
